A study of Arabidopsis thaliana with 12 samples.

Results

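GH3.3, IAA18, IAA20 and IAA29 are 4 Arabidopsis thaliana genes of the auxin response, and they are described here out of 13355 genes that could be named and tested on the array. They were found by gene symbol, each has 1 probe set, and all 4 were measured on every array. The genes had been picked on earlier results of these same arrays, in which they differed between groups, so the values chosen from are the group differences themselves. Their levels and differences are therefore a description, and no test of them is used as support.

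Auxin acts by removing repressors. The AUX/IAA proteins, to which IAA18, IAA20 and IAA29 belong, bind auxin response factors and keep auxin-responsive genes off. When auxin is present, the TIR1/AFB F-box receptors bind the degron motif of most AUX/IAA proteins and send them for degradation, and the response factors are then free to act. Many AUX/IAA genes and GH3 genes are themselves induced by auxin. GH3.3 encodes an enzyme that joins indole-3-acetic acid to amino acids and so lowers the pool of free auxin.

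Total RNA from shoots of seedlings aged 14 days, grown on agar with 1 of 2 calcium supplies, was hybridized to Affymetrix arrays. The 4 groups were lcs7 with 0.3 mM calcium, Col-0 with 0.3 mM calcium, lcs7 with 2 mM calcium and Col-0 with 2 mM calcium, each with 3 arrays labelled as biological replicates. lcs7 is 1 avp1 mutant line, AVP1 being a pyrophosphatase that pumps protons into the vacuole, and Col-0 is the wild type. How many plants went into an array is not given in the sources used here. AVP1 itself was not analysed here, and a line difference cannot be told apart from an effect of AVP1 because only 1 mutant line was used.

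The Col-0 arrays at 0.3 mM calcium were unlike each other at 11 genes. On all lcs7 arrays these genes had 8 or more times the top Col-0 signal at 2 mM calcium, and they averaged 300 or more in each lcs7 group. On a scale on which Col-0 at 2 mM is 0% and lcs7 at 0.3 mM is 100%, replicate 1 had a median over these genes of -0.1%, while replicate 2 had 25.5% and replicate 3 had 37.2%. The cause was not tested. Comparisons with this group were therefore also fitted with replicate 1 as its only array. In those fits the spread comes from the other groups, and the lone array is assumed to vary like them.

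Array medians ran from 161.3 to 187.6 signal units, and 17.1 to 19.3% of probe sets were under 20, a level taken here as dim. Of 6 green shoot markers 1 was measured, the Rubisco activase gene RCA. Its signal ran from 17244.8 to 17547.7 in lcs7 and from 21554.8 to 23898.1 in Col-0 at 0.3 mM calcium, and from 23117.1 to 25509.7 in lcs7 and from 22134.8 to 24418.3 in Col-0 at 2 mM calcium. Of 8 root markers 2 were measured, the beta-glucosidase gene PYK10 and the root hair expansin gene EXPA7, and neither was at 0. Their summed signal, which was nearly all PYK10, ran from 4486.2 to 7054.2 in lcs7 and from 1371.6 to 1665.2 in Col-0 at 0.3 mM calcium, and from 2502.1 to 3029.8 in lcs7 and from 925.7 to 1064.1 in Col-0 at 2 mM calcium. PYK10 was higher in lcs7 than in Col-0 at 0.3 mM (1.92 ± 0.17 on the log2 scale, limma adjusted p = 0.000308) and at 2 mM calcium (1.44 ± 0.17, limma adjusted p = 0.00491), as the signal of GH3.3 was. The other root marker, EXPA7, passed in neither comparison, with -0.01 ± 0.64 at 0.3 mM and 1.29 ± 0.64 at 2 mM calcium. For 0.3 against 2 mM calcium in lcs7 the 2 markers went opposite ways, with 1.11 ± 0.17 for PYK10 and -0.90 ± 0.64 for EXPA7. RCA was lower in lcs7 at 0.3 mM calcium (-0.41 ± 0.09, limma adjusted p = 0.0121). With Col-0 replicate 1 alone at 0.3 mM the PYK10 difference there was 2.1 (limma adjusted p = 0.00919) and that of RCA was -0.46, which no longer passed (limma adjusted p = 0.0788). The part of tissue composition in the results below was not tested, and in shoots fewer cells of a type and less RNA per cell cannot be told apart.

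GH3.3 had signals of 777.5, 616.8 and 841.1 in lcs7 and of 221.6, 269.4 and 164.9 in Col-0 at 0.3 mM calcium. At 2 mM calcium it had signals of 346.3, 337.3 and 516.2 in lcs7 and of 203.4, 235.9 and 238.0 in Col-0. Every lcs7 array was above every Col-0 array at the same calcium level, and the lcs7 arrays at 0.3 mM were above those at 2 mM. The Col-0 arrays of the 2 calcium levels overlapped.

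In log2 terms GH3.3 stood 1.79 ± 0.22 above Col-0 in lcs7 at 0.3 mM calcium (SE, n = 3 arrays per group), a ratio of 3.45, and 0.80 ± 0.22 above it at 2 mM, a ratio of 1.74. The difference of 0.3 against 2 mM calcium was 0.91 ± 0.22 in lcs7 and -0.07 ± 0.22 in Col-0. With replicate 1 as the only Col-0 array at 0.3 mM, the genotype difference was 1.74 and the calcium difference in Col-0 was -0.02, and both moved by less than the replicate SD of 0.28. The order of the group levels was lcs7 at 0.3 mM, lcs7 at 2 mM, Col-0 at 2 mM and Col-0 at 0.3 mM, and of the neighbours in this order only the Col-0 groups overlapped.

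**Figure D1:**
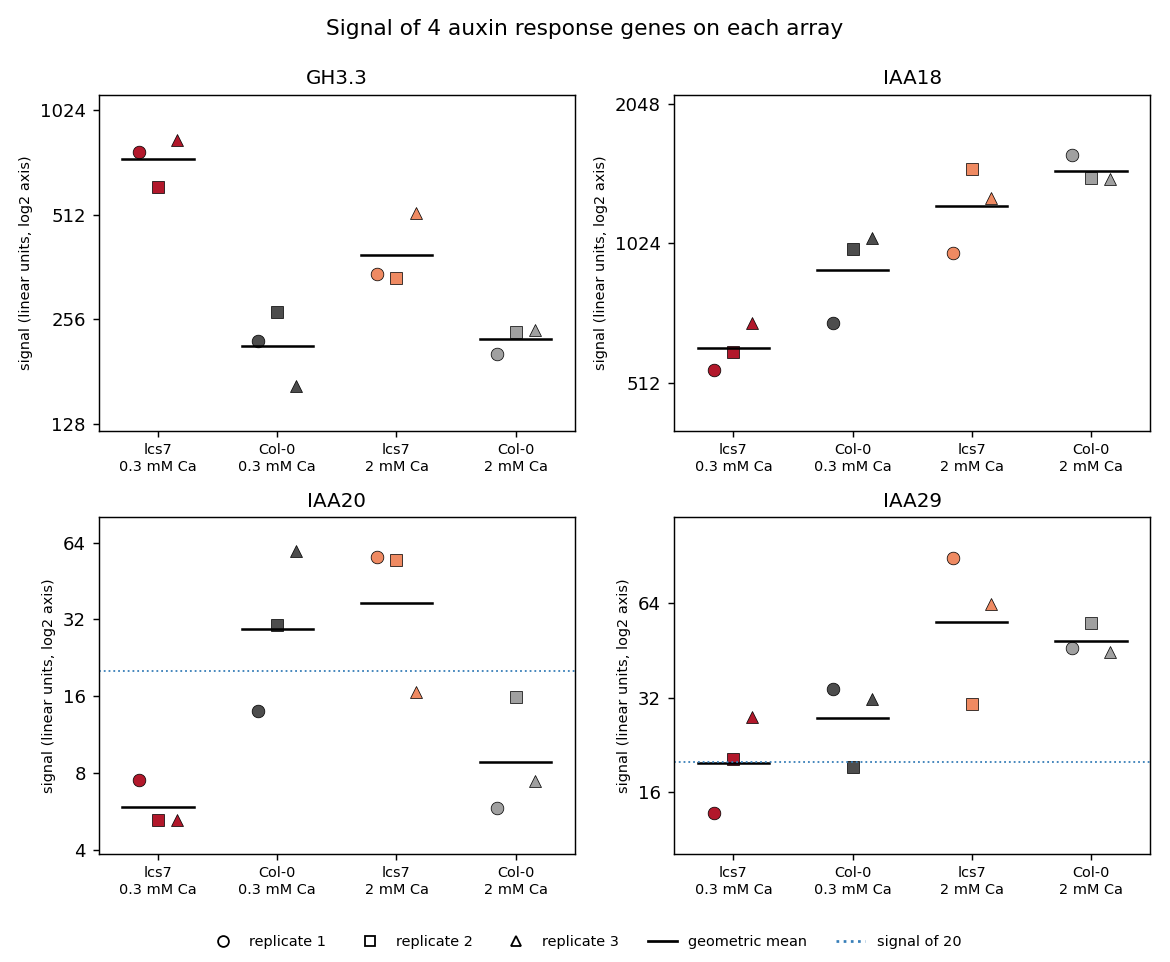
Signal of GH3.3, IAA18, IAA20 and IAA29 on each of the 12 arrays, in linear units on a log2 axis. Symbols mark the replicate, bars the geometric mean of 3 arrays, and the dotted line a signal of 20. The GH3.3 arrays of lcs7 lie above those of Col-0 at the same calcium level, IAA18 and IAA29 are lower at 0.3 mM calcium in each line, and 8 of the 12 arrays of IAA20 lie under 20.

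IAA18, a repressor known from dominant mutants with misplaced cotyledons, was lower at 0.3 than at 2 mM calcium in lcs7, where GH3.3 was higher. Its signals were 544.2, 598.1 and 690.3 in lcs7 and 688.8, 997.7 and 1053.4 in Col-0 at 0.3 mM calcium, and 978.1, 1486.7 and 1283.7 in lcs7 and 1591.2, 1417.0 and 1411.0 in Col-0 at 2 mM calcium. All arrays at 0.3 mM were below all arrays at 2 mM in the same line, while the lcs7 and Col-0 arrays overlapped at each calcium level.

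The log2 difference of IAA18 for 0.3 against 2 mM calcium was -1.02 ± 0.20 in lcs7, a ratio of 0.494, and -0.71 ± 0.20 in Col-0, a ratio of 0.611. Between the lines it was -0.56 ± 0.20 at 0.3 mM and -0.26 ± 0.20 at 2 mM. Replicate 1 of Col-0 at 0.3 mM, at 688.8, stood just under the highest lcs7 array, at 690.3, and with it as the only array of its group the line difference at 0.3 mM was -0.18 and the calcium difference in Col-0 was -1.09. The levels ran from Col-0 at 2 mM through lcs7 at 2 mM and Col-0 at 0.3 mM to lcs7 at 0.3 mM, and each neighbouring pair in this order overlapped.

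IAA29, a repressor gene known to be induced in shade through the PIF transcription factors, had 2 of its 12 signals under 20, both at 0.3 mM calcium. Its signals were 13.8, 20.4 and 27.8 in lcs7 and 34.0, 19.3 and 31.7 in Col-0 at 0.3 mM calcium, and 88.6, 30.5 and 63.4 in lcs7 and 46.0, 55.4 and 44.7 in Col-0 at 2 mM calcium. As for IAA18, the arrays at 0.3 mM lay below those at 2 mM in each line, and the lines overlapped at each calcium level.

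For 0.3 against 2 mM calcium the log2 difference of IAA29 was -1.48 ± 0.40 in lcs7, a ratio of 0.358, and -0.82 ± 0.40 in Col-0, a ratio of 0.567. Between the lines it was -0.47 ± 0.40 at 0.3 mM calcium and 0.20 ± 0.40 at 2 mM, and the value at 2 mM was -0.14 without lcs7 replicate 1. With signals under 20 raised to 20 the calcium differences were -1.31 in lcs7 and -0.80 in Col-0. The levels ran from lcs7 at 2 mM through Col-0 at 2 mM and Col-0 at 0.3 mM to lcs7 at 0.3 mM, and only the 2 Col-0 groups did not overlap as neighbours. With Col-0 replicate 1 alone at 0.3 mM the line difference there was -0.78 and the calcium difference in Col-0 was -0.51.

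IAA20 differs from most of its family in lacking the degron, and its protein is long-lived in the presence of auxin. Its signals were 7.5, 5.2 and 5.2 in lcs7 and 14.0, 30.4 and 59.5 in Col-0 at 0.3 mM calcium, against 56.3, 54.6 and 16.6 in lcs7 and 5.8, 15.8 and 7.4 in Col-0 at 2 mM calcium. The line with the higher signal thus changed with calcium, with lcs7 below Col-0 on all arrays at 0.3 mM and above it on all arrays at 2 mM. Of the 12 arrays 8 were under 20, so neither the sizes of these differences nor the separation of the lines is well measured. At 0.3 mM the nearest arrays of the lines were 7.5 in lcs7 and 14.0 in Col-0, both under 20. At 2 mM they were 16.6 in lcs7 and 15.8 in Col-0, again both under 20.

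The log2 difference of IAA20 between lcs7 and Col-0 was -2.32 ± 0.63 at 0.3 mM calcium and 2.08 ± 0.63 at 2 mM. For 0.3 against 2 mM calcium it was -2.66 ± 0.63 in lcs7 and 1.74 ± 0.63 in Col-0, where the arrays overlapped. With signals under 20 raised to 20 these values were -0.73, 0.98, -0.98 and 0.73. The 3 Col-0 arrays at 0.3 mM spread from 14.0 to 59.5, and with replicate 1 alone the line difference there was -1.25 and the calcium difference in Col-0 was 0.67. The levels ran from lcs7 at 2 mM through Col-0 at 0.3 mM and Col-0 at 2 mM to lcs7 at 0.3 mM, and each neighbouring pair overlapped.

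**Figure D2:**
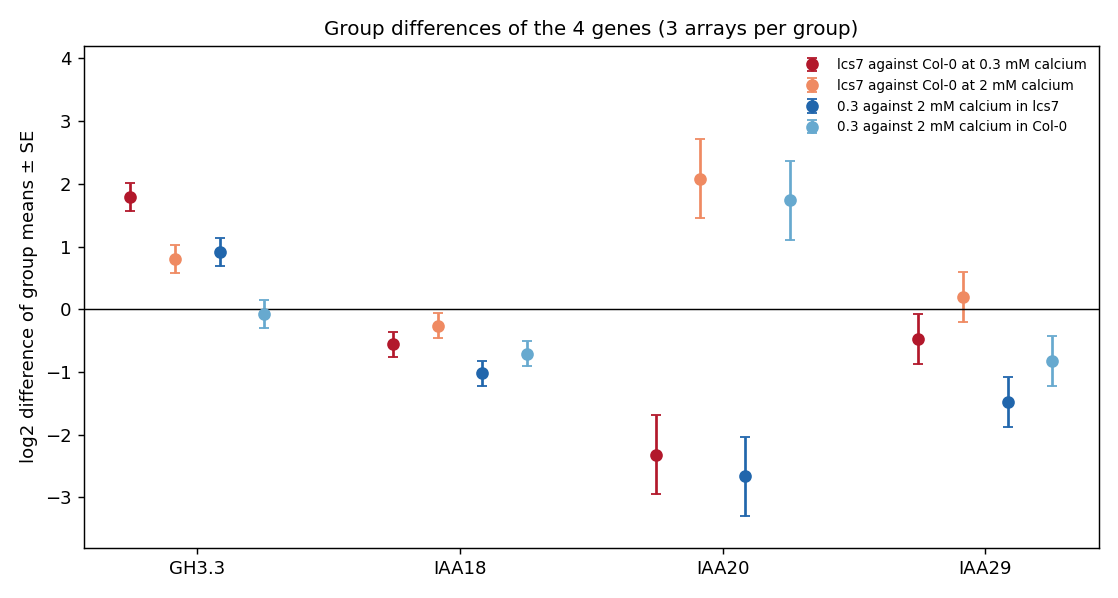
Differences between group means of log2 signal, with SE bars (3 arrays per group), for the 4 genes, as lcs7 minus Col-0 at each calcium level and as 0.3 minus 2 mM calcium in each line. GH3.3 is above 0 in both line comparisons, IAA18 and IAA29 are below 0 in both calcium comparisons, and IAA20 changes sign between the calcium levels and between the lines.

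The difference between the line effects at the 2 calcium levels (0.3 mM minus 2 mM) was 0.99 ± 0.32 for GH3.3, -0.31 ± 0.28 for IAA18, -0.67 ± 0.57 for IAA29 and -4.40 ± 0.89 for IAA20. The IAA20 value was -1.71 with signals under 20 raised to 20. With Col-0 replicate 1 alone at 0.3 mM the 4 values were 0.94, 0.08, -0.97 and -3.33, in the same order of genes.

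Counts of the 4 genes are given beside the share of all 13355 genes that limma called at an adjusted p under 0.05, and nothing is read from them because the genes were picked on these contrasts. For lcs7 against Col-0 at 0.3 mM calcium 1 of 4 was called higher, GH3.3 (7.01% of all genes), and 1 lower, IAA20 (9.8%). At 2 mM calcium 0 of 4 were called (1.65% of all genes higher and 1.12% lower). For 0.3 against 2 mM calcium in lcs7 1 of 4 was called higher, GH3.3 (10.1%), and 3 lower (11.8%), and in Col-0 0 of 4 were called (0.195% higher and 0.112% lower). For the interaction 1 of 4 was called lower, IAA20 (1.33%), and 0 higher (0.981%). In each of the line comparisons 2 of the 4 genes had no overlap between the groups, where 35.7% of all genes did so at 0.3 mM and 21.4% at 2 mM. They did not overlap at 4 of 4 in the calcium comparison of lcs7 (41.7% of all genes) and at 2 of 4 in that of Col-0 (22.3%). The comparisons share groups of arrays and are not independent of each other.

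Other genes of auxin synthesis, transport, inactivation and response were taken from 11 lists. Of their 157 genes 25 were measured under a gene name. The lists of auxin response factors, TIR1/AFB receptors, auxin transporters and dormancy-associated genes had no gene so named and are not analysed here. The annotation used names genes for 14016 of the 22746 probe sets. Other listed genes may therefore be on the array without a name, or in probe sets of several genes. GH3.17, AT1G14130 and AT1G14120 rose in lcs7 against Col-0 at 0.3 mM calcium, and IAA30 and AT5G51470 fell. In lcs7, YUC2 and AT5G51470 were lower at 0.3 than at 2 mM calcium, and AT1G14130 and AT1G14120 were higher. Limma called 3 higher and 2 lower in lcs7 than in Col-0 at 0.3 mM calcium, 2 higher and 2 lower at 0.3 than at 2 mM calcium in lcs7, and 2 higher for the interaction. Over all genes 7.01% were higher and 9.8% lower in the first of these comparisons, 10.1% and 11.8% in the second, and 0.981% higher for the interaction, so for calcium in lcs7 the counts among the 25 were near or below the share over all genes. It called 0 of 25 between the lines at 2 mM calcium and 0 of 25 between calcium levels in Col-0. In each of these comparisons 3 genes had an unadjusted p under 0.05. The share of all genes at that threshold was not computed, so nothing is read from these counts. The median log2 difference of the 25 genes was 0.03 between the lines at 0.3 mM calcium, against -0.05 over all genes, and 0.02 at 2 mM, against -0.04. For 0.3 against 2 mM calcium it was -0.38 in lcs7, against -0.05 over all genes, and -0.23 in Col-0, against -0.03, and for the interaction it was -0.22, against -0.02.

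Of the 4 other AUX/IAA genes measured, IAA30, IAA31, IAA33 and IAA34, only IAA30 had all 12 signals above 20. In lcs7 against Col-0 at 0.3 mM calcium 1 of the 4 fell, IAA30, where 9.8% of all genes fell. IAA30 is a close relative of IAA20 and lacks the degron too. Its signals were 50.1, 27.5 and 23.8 in lcs7 and 62.6, 72.7 and 82.8 in Col-0 at 0.3 mM calcium, and 41.7, 63.5 and 52.1 in lcs7 and 67.7, 50.8 and 75.6 in Col-0 at 2 mM calcium. The lines did not overlap at 0.3 mM, where IAA30 fell by 1.17 on the log2 scale (SE 0.29, limma adjusted p = 0.022), and they overlapped at 2 mM. At 2 mM calcium the geometric mean of IAA30 was 51.7 in lcs7 and 63.8 in Col-0, a log2 difference of -0.30 ± 0.29, where that of IAA20 was 2.08 ± 0.63. The call of IAA30 ended with replicate 1 as the only Col-0 array at 0.3 mM calcium (log2 difference -0.97, limma adjusted p = 0.263), when the other groups were left out of the fit, and in 4 of the 12 fits without 1 array, those without Col-0 replicate 2 or 3 or lcs7 replicate 2 or 3 at 0.3 mM.

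Of 10 other GH3 genes 1 rose and 1 fell in lcs7 against Col-0 at 0.3 mM calcium, where 7.01% of all genes rose and 9.8% fell. GH3.17, which like GH3.3 conjugates indole-3-acetic acid and prefers glutamate, had signals of 329.2, 317.4 and 347.4 in lcs7 and of 113.7, 116.0 and 137.0 in Col-0 at 0.3 mM calcium, and of 186.9, 319.3 and 241.5 in lcs7 and 215.2, 211.4 and 193.8 in Col-0 at 2 mM calcium. It rose by 1.44 ± 0.18 at 0.3 mM (limma adjusted p = 0.00103), also in each of the 12 fits without 1 array and, on the spread of the other groups, with Col-0 replicate 1 alone (limma adjusted p = 0.0236). At 2 mM the lines overlapped. In Col-0 the calcium difference was -0.76 ± 0.18 for GH3.17 (limma adjusted p = 0.0821, and -0.86 with replicate 1 alone) and -0.07 ± 0.22 for GH3.3, and whether the 2 genes differ there was not tested. That of GH3.17 passed with an offset of 50, an intensity trend, or the dimmest 40% of genes left out. The interaction of GH3.17 was 1.21 ± 0.25 (limma adjusted p = 0.0422), a call that held in 1 of the 12 fits without 1 array, the one without lcs7 replicate 2 at 2 mM calcium. It also ended with Col-0 replicate 1 alone at 0.3 mM (limma adjusted p = 0.144), with quantile normalization and with median centring.

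AT5G51470, a locus of the GH3 list that has no symbol in the reference, had signals of 7.9, 5.8 and 14.3 in lcs7 and of 39.2, 20.3 and 36.9 in Col-0 at 0.3 mM calcium, and of 21.0, 37.7 and 20.6 in lcs7 and 46.6, 54.2 and 47.6 in Col-0 at 2 mM. It was lower in lcs7 at 0.3 mM (-1.83 ± 0.38, limma adjusted p = 0.0109) and at 0.3 than at 2 mM calcium in lcs7 (-1.55 ± 0.38, limma adjusted p = 0.0177). Both calls ended with signals under 20 raised to 20 (limma adjusted p = 0.183 and 0.472) and when the other groups were left out of the fit. The calcium call also ended in 3 of the 12 fits without 1 array, those lacking replicate 2 of lcs7 at 2 mM or replicate 1 or 2 of lcs7 at 0.3 mM. The line call had a limma adjusted p = 0.056 with Col-0 replicate 1 alone. GH3.5, with signals from 338.3 to 719.6, had log2 differences between the lines of -0.41 ± 0.20 at 0.3 mM and -0.13 ± 0.20 at 2 mM, and the first was 0.00 with Col-0 replicate 1 alone. In lcs7 its arrays at 0.3 mM calcium were below those at 2 mM, with a difference of -0.54 ± 0.20 (limma adjusted p = 0.0823). That difference passed with median centring, an offset of 50, an intensity trend, the dimmest 40% of genes left out, the Col-0 groups left out, or Col-0 replicate 1 at 0.3 mM left out. GH3.1 had signals from 1.4 to 34.4, and GH3.9, from 45.6 to 102.7, passed no test.

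**Figure D3:**
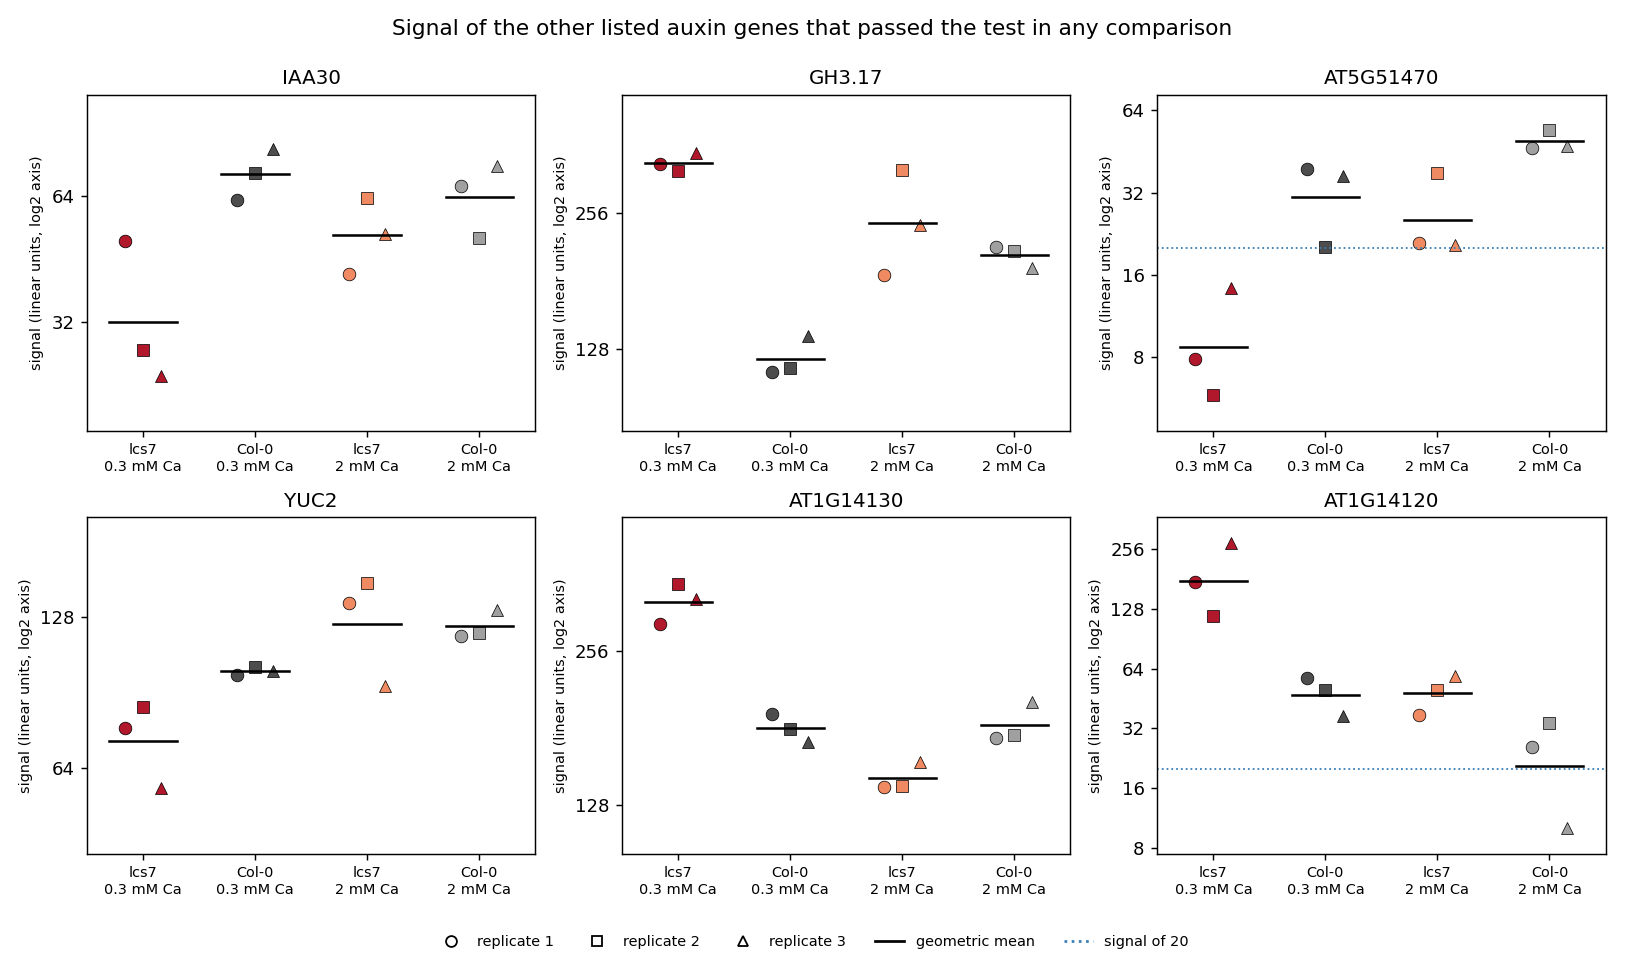
Signal on each array of the 6 other listed auxin genes that limma called in any comparison, in linear units on a log2 axis, with the geometric mean of 3 arrays as a bar and a signal of 20 as a dotted line. GH3.17, AT1G14130 and AT1G14120 are higher in lcs7 than in Col-0 at 0.3 mM calcium, and IAA30 and AT5G51470 are lower there, while YUC2 is lower at 0.3 than at 2 mM calcium in lcs7.

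On the list of auxin conjugate hydrolysis and oxidation 4 genes were measured. They included UGT84B1 and UGT74D1, while the listed hydrolase genes, ILR1, IAR3 and the ILL genes, were not measured under a gene name. Of the 4 measured genes 2 rose, AT1G14130 and AT1G14120, which have no symbol in the reference. Both rose in lcs7 against Col-0 at 0.3 mM calcium, where 7.01% of all genes rose. Both also rose at 0.3 against 2 mM calcium in lcs7, where 10.1% of all genes rose. AT1G14130 had signals of 290.0, 347.5 and 325.2 in lcs7 and of 192.7, 180.4 and 170.1 in Col-0 at 0.3 mM calcium, and of 138.6, 139.2 and 155.5 in lcs7 and 173.3, 175.8 and 203.9 in Col-0 at 2 mM. It was above Col-0 on all lcs7 arrays at 0.3 mM and below it on all at 2 mM. Between the lines it rose by 0.82 ± 0.11 at 0.3 mM (limma adjusted p = 0.00157) and had a difference of -0.35 ± 0.11 at 2 mM (limma adjusted p = 0.16), with an interaction of 1.17 ± 0.16 (limma adjusted p = 0.0137). In lcs7 it rose by 1.15 ± 0.11 at 0.3 against 2 mM calcium (limma adjusted p = 0.000267). With Col-0 replicate 1 alone at 0.3 mM the interaction had a limma adjusted p = 0.0951 and the line difference at 0.3 mM one of 0.0478.

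AT1G14120 had signals of 175.3, 117.4 and 274.5 in lcs7 and of 57.6, 50.1 and 36.9 in Col-0 at 0.3 mM calcium, and of 37.5, 50.1 and 59.0 in lcs7 and 25.8, 34.1 and 10.1 in Col-0 at 2 mM. The lcs7 arrays were above the Col-0 arrays at each calcium level. It rose by 1.91 ± 0.46 in lcs7 against Col-0 at 0.3 mM (limma adjusted p = 0.0203) and by 1.89 ± 0.46 at 0.3 against 2 mM calcium in lcs7 (limma adjusted p = 0.017). The first of these calls ended with Col-0 replicate 1 alone (limma adjusted p = 0.238) and in the fits without Col-0 replicate 2 or 3 or lcs7 replicate 1 or 3 at 0.3 mM. The second ended without lcs7 replicate 1 at 2 mM or lcs7 replicate 3 at 0.3 mM. UGT74D1, a glucosyltransferase that acts on auxin, had a line difference of 0.51 ± 0.18 at 0.3 mM (limma adjusted p = 0.0883), and of 0.38 with Col-0 replicate 1 alone. It passed with an offset of 50, an intensity trend, or the dimmest 40% of genes left out.

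YUC2, a flavin monooxygenase of the last step of auxin synthesis, had signals of 76.8, 84.4 and 58.2 in lcs7 and of 98.0, 101.8 and 99.9 in Col-0 at 0.3 mM calcium, and of 136.4, 149.7 and 93.3 in lcs7 and 117.1, 119.0 and 132.2 in Col-0 at 2 mM. In lcs7 all arrays at 0.3 mM were below those at 2 mM, with a difference of -0.78 ± 0.19 (limma adjusted p = 0.0173). YUC2 was the 1 of 4 measured synthesis genes that passed in this comparison, where 11.8% of all genes were lower. The call ended when the Col-0 groups were left out of the fit (limma adjusted p = 0.0873) and without lcs7 replicate 1 or 2 at 2 mM or lcs7 replicate 3 at 0.3 mM. The 1 measured gene of the shade list, HAT2, of the 27 SAUR genes, SAUR10, and of the list of vascular genes, AT5G66940, passed no test with all arrays. HAT2, a homeodomain factor induced by auxin, had signals of 250.1, 211.5 and 212.2 in lcs7 and of 126.9, 325.5 and 398.7 in Col-0 at 0.3 mM calcium. Its line difference there was -0.18 ± 0.35 with all arrays and 0.82 with Col-0 replicate 1 alone, and its calcium difference in Col-0 was -0.66 ± 0.35 and -1.66. With replicate 1 alone, where the other groups supply the spread, HAT2 passed in both comparisons, and AT5G66940 passed between the lines at 0.3 mM calcium (1.52) and between the calcium levels in lcs7 (0.59).

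Genes with a profile like that of each gene were sought among the 7336 genes with a mean signal of at least 100, by Pearson's r of log2 signals over the 12 arrays. The arrays share their groups, so r follows the group means, and it is given as a description. The nearest to GH3.3 were AT5G57150 (r = 0.951), AT1G10990 (r = 0.943) and NAI2, a protein of endoplasmic reticulum bodies (r = 0.942), followed among genes with a symbol by ARL, a gene of organ growth by cell expansion (r = 0.932), and SAY1 (r = 0.926). NAI2 had geometric mean signals of 1558 in lcs7 and 509.7 in Col-0 at 0.3 mM calcium, and of 750.8 in lcs7 and 448.8 in Col-0 at 2 mM.

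The nearest to IAA18 were AT2G36410 (r = 0.981), AT3G06770 (r = 0.978) and AT5G08520 (r = 0.976). Among genes with a symbol they were the bZIP transcription factor gene BZIP61 (r = 0.972), the expansin-like gene EXLA1 (r = 0.968) and SKU5, a cell-surface protein of directional growth (r = 0.963). EXLA1 had signals of 1695.5, 1554.3 and 2074.9 in lcs7 and of 2516.8, 5028.8 and 3066.9 in Col-0 at 0.3 mM calcium, and of 3950.3, 9491.0 and 7153.8 in lcs7 and 8088.5, 7355.1 and 8326.8 in Col-0 at 2 mM. Replicate 1 of lcs7 at 2 mM and replicate 1 of Col-0 at 0.3 mM were the lowest of their groups for IAA18, BZIP61, EXLA1 and SKU5, a likeness that the choice by r favours. Over genes with a mean signal of at least 100, the deviations of these arrays from their group means had r = 0.3. Pairs from different groups with different replicate numbers had up to 0.31.

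**Figure D4:**
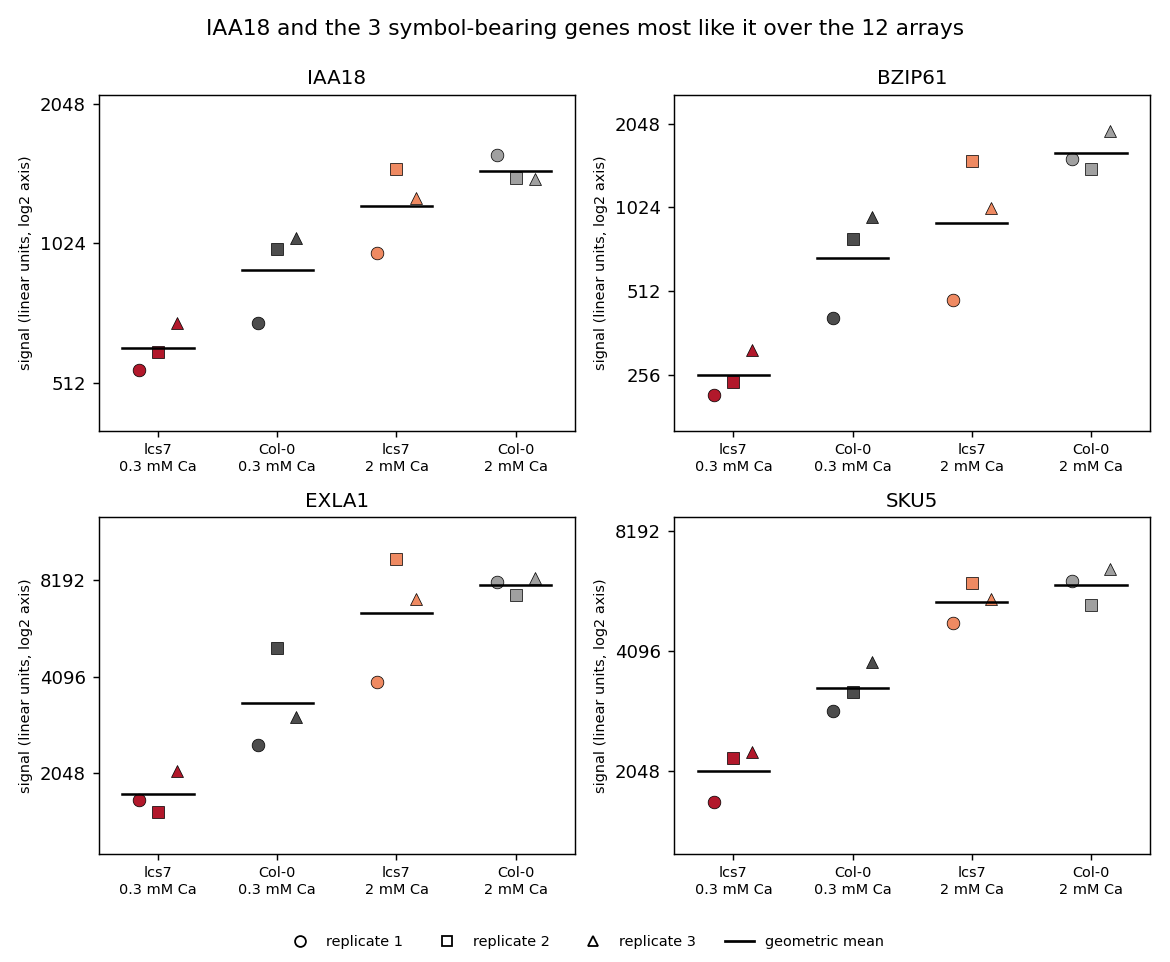
Signal on each array of IAA18 and of the 3 genes with a symbol whose log2 signals correlate most with it over the 12 arrays (BZIP61, EXLA1 and SKU5), in linear units on a log2 axis, with the geometric mean of 3 arrays as a bar. In all 4 genes lcs7 at 0.3 mM calcium is the lowest group and Col-0 at 2 mM the highest.

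The nearest to IAA20 were AT2G30695 (r = 0.922), CLPP4, a subunit of the chloroplast Clp protease (r = 0.906), and AT1G78995 (r = 0.876), followed among genes with a symbol by ALDH11A3 (r = 0.85) and the magnesium chelatase gene CHLI2 (r = 0.835). Their ranges were much narrower, with geometric means of CLPP4 of 3998 in lcs7 and 4912 in Col-0 at 0.3 mM calcium, and of 4932 in lcs7 and 4230 in Col-0 at 2 mM. The nearest to IAA29 were AT1G26580 (r = 0.934), AT3G09030 (r = 0.922) and AT5G25560 (r = 0.921). Among genes with a symbol they were the methionine aminopeptidase gene MAP1C (r = 0.897) and the chloroplast-encoded genes psbH (r = 0.886) and atpF (r = 0.881). The 3 nearest genes depended on the measure: by Spearman's rho 0 of 3 were shared for GH3.3, IAA18 and IAA20 and 1 of 3 for IAA29. Among genes with a symbol 0 of 3 were shared for GH3.3, 2 for IAA18, 1 for IAA20 and 2 for IAA29.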

How the data were processed

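For each of 12 arrays the authors deposited 22746 intensities, 1 per probe set and not in log units. The submitters' processing notes name RMA and oligo 1.32.0, yet the values are linear, with a floor of 0.1 and nearly equal trimmed means per array (495.4 to 496.0, without the highest and lowest 2%), so how the authors summarised them is not given in the sources used here. Arrays have no read depth, and their number limits the precision.

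Intensities were taken to log2 with no offset. The platform annotation names 1 gene for 13513 probe sets and several for 503. Probe sets with several genes or with no gene name were left out, and only 14016 of the 22746 carry a name. The brightest probe set of a gene was kept, leaving 13355 genes. Limma 3.58.1 in R 4.3.3 fitted 1 mean per group over all arrays, with empirical Bayes moderation and Benjamini-Hochberg adjustment over all genes. The test was tried on simulated data. SEs are limma's. Figures and tables used Python 3.11.15, pandas 2.3.3 and matplotlib 3.10.9.

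The 4 genes, the lists and the tests were chosen with earlier results of these data known. Named were the 4 genes, up to 3 called genes per list and comparison with the largest differences, and the 3 genes most like each gene, over all genes and over those with a symbol. Other genes are named to account for small counts and were chosen after their values were seen. Alternatives were quantile normalization, median centring, raising signals under 20 to 20, an offset of 50, dropping the dimmest 40% of genes, averaging a gene's probe sets, an intensity trend, only the compared groups, the replicate number as a block, each array left out, and Col-0 replicates 2 and 3 at 0.3 mM left out. No sequences were used here.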

Additional observations from a re-analysis of the deposited data

Results flagged for a closer look

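IAA20 stood out because its arrays moved one way in lcs7 at one calcium level and the other way at the other: the log2 difference between lcs7 and Col-0 was -2.32 at 0.3 mM calcium and 2.08 at 2 mM, with no overlap of the lines at either level. The limma calls of IAA20 are not read as support, since the gene was picked on these arrays and 8 of its 12 signals were under 20. The nearest arrays of the lines were under 20 at each calcium level, so their separation is not well measured. AT1G14130 did the reverse, with 0.82 at 0.3 mM calcium and -0.35 at 2 mM, and an interaction of 1.17 (limma adjusted p = 0.0137). GH3.17 stood out by its interaction of 1.21 (limma adjusted p = 0.0422). The groups have 3 arrays each, too few for a test of single outlying arrays, and fits without each array are described below.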

How the results depend on the processing

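The number of listed auxin genes called was 5 of 25 for the lines at 0.3 mM calcium and 3 when the other groups were left out of the fit, which for calcium in lcs7 gave 4 as before, 2 of them shared. For calcium in Col-0 it was 0, and 1, GH3.17, with an offset of 50, without the 40% dimmest genes or with an intensity trend. With replicate 1 as the only Col-0 array at 0.3 mM the calcium difference of HAT2 in Col-0 was -1.66, against -0.66 with all arrays. For the interaction the number called was 2, and 1 with quantile normalization, median centring or the replicate block. Neither call held without Col-0 replicates 2 and 3 at 0.3 mM, where the interaction was 1.31 for GH3.17 and 1.08 for AT1G14130. Without those replicates 2 of the 5 calls of the lines at 0.3 mM were kept, and 2 other genes were called. Leaving out 1 array gave from 3 to 7 calls for the lines at 0.3 mM, from 2 to 6 for calcium in lcs7, from 1 to 2 for the interaction, and 0 in each fit for the lines at 2 mM and for calcium in Col-0.

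For IAA20 the log2 differences shrank with signals under 20 raised to 20 and with an offset of 50, to -0.73 and -0.56 for the lines at 0.3 mM calcium, 0.98 and 0.60 for the lines at 2 mM, -0.98 and -0.69 for calcium in lcs7, 0.73 and 0.47 for calcium in Col-0, and -1.71 and -1.17 for the interaction. IAA29 for calcium in lcs7 was -0.62 with the offset. Without Col-0 replicates 2 and 3, IAA18 was -0.18 for the lines at 0.3 mM, -1.09 for calcium in Col-0 and 0.08 for the interaction, and IAA20 was -1.25, 0.67 and -3.33. Leaving out 1 array gave IAA20 from -2.86 to -1.81 for the lines at 0.3 mM and from 1.78 to 2.66 at 2 mM, GH3.3 from 1.60 to 1.95 and from 0.60 to 0.91, IAA18 from -0.75 to -0.45 and from -0.39 to -0.09, and IAA29 from -0.73 to -0.21 and from -0.14 to 0.63. For calcium in lcs7 the ranges were 0.81 to 1.11 for GH3.3, -1.18 to -0.88 for IAA18, -3.24 to -2.36 for IAA20 and -1.92 to -1.15 for IAA29. No called difference of the 4 genes changed sign. This is no support for the called line and calcium differences, because their arrays did not overlap and leaving out arrays could not reverse them.

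Arrays with the same replicate number deviated together no more than others did. Over 18 such pairs r of the deviations from the group means ran from -0.23 to 0.3, with 3 over 0.1. Over 36 pairs of arrays from different groups with different numbers it ran from -0.38 to 0.31, with 8 over 0.1. With the replicate block the number of listed genes called was 4 for the lines at 0.3 mM calcium and 4 for calcium in lcs7, and 1 for the interaction. The calls it ended were IAA30 for the lines at 0.3 mM (limma adjusted p = 0.0508) and GH3.17 for the interaction (limma adjusted p = 0.0842).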
